A study of Homo sapiens with 18 samples.

Results

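PPAR targets and fatty acid oxidation were followed through 9 genes chosen by name: ANGPTL4, PDK4, CPT1A, SLC25A20, ACADVL, HADHA, HADHB, PPARD and CPT2. The choice was made with earlier results of these data known. They are 9 of the 60709 genes with counts, and all 9 passed the filter on low counts that left 15189 genes to test. RNA was sequenced from MDA-MB-231, an established triple-negative line from human breast carcinoma, in 2 derived lines. The sh-IGFBP6 line has a hairpin for knockdown of IGFBP6, which encodes a binding protein of insulin-like growth factors, and the sh-LUC line is the hairpin control. Each line received, for 24 h, docosahexaenoic acid (DHA, an omega-3 polyunsaturated fatty acid) at 200 µM, erastin (an inhibitor of the cystine importer) at 2.5 µM, or vehicle, which was 0.5% DMSO with 0.5% ethanol. DHA was given in ethanol beside 0.5% DMSO, and erastin in DMSO beside 0.5% ethanol. The amounts of ethanol given with DHA and of DMSO given with erastin are not known here. The 6 groups hold 3 libraries each, 18 in all. The labels name 1 hairpin per line and do not say whether a line is a clone or a pool, nor whether libraries of 1 group are separate cultures; p-values therefore reflect the spread among these libraries alone, which may be technical. The series title places both agents under ferroptosis, an iron-dependent cell death driven by lipid peroxidation.

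Peroxisome proliferator-activated receptors (PPARs) are nuclear receptors that bind DNA together with retinoid X receptors and are activated by fatty acids and their derivatives. Among the genes they switch on in liver, muscle and fat are those that bring fatty acids into mitochondria and oxidise them there. Long-chain acyl groups are joined to carnitine by CPT1 on the outer mitochondrial membrane, carried across the inner membrane by SLC25A20, returned to coenzyme A by CPT2, and shortened in cycles by ACADVL and by the trifunctional protein made of HADHA and HADHB.

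Gene counts per library ran from 609936 to 7977429. The lowest belonged to sh-IGFBP6 erastin replicate 3, where MT-RNR1 and MT-RNR2, ribosomal RNAs of the mitochondrion, took 54.4% of counts; in the remaining 17 libraries they took 0.0349% to 0.504%. That library held 278278 counts outside those RNAs, with 1 count of PDK4, 5 of SLC25A20, 6 of CPT2 and 9 of ANGPTL4. IGFBP6, the targeted gene, averaged 0.939, 1.59 and 1.39 CPM in sh-IGFBP6 cells with DHA, erastin and vehicle, and 13.9, 15.4 and 19.4 CPM in sh-LUC cells with the same treatments. Levels are CPM, counts scaled to a common library size with TMM factors, so they are shares of each library, in which fewer cells of a kind and less RNA per cell cannot be told apart. Genes listed for mesenchymal and basal breast lines were all detected, with a summed level of 3798 to 6131 CPM. They are VIM, CD44, EGFR, AXL and CAV1, with KRT8 and KRT18, keratins that luminal cells also express. Summed markers reached at most 2.2 CPM for adipocytes (ADIPOQ, LEP, PLIN1 and CIDEA), 3.8 CPM for hepatocytes, with APOA2 and TTR at 0 counts, and 5.0 CPM for leukocytes.

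The promoters of ANGPTL4, PDK4 and CPT1A are shown because these genes rose with both agents in both lines, and those of HADHA and HADHB because this pair starts head to head. Each window runs 5′ to 3′ on the gene's own strand from 250 bases before to 50 bases after the RefSeq start (GRCh38.p14), and capitals mark a GC box (GGGCGG) or a CCAAT box, read on either strand. ANGPTL4 lies at chr19:8363905-8364204 (+), PDK4 at chr7:95596467-95596766 (-), CPT1A at chr11:68844228-68844527 (-), HADHA at chr2:26244583-26244882 (-) and HADHB at chr2:26244689-26244988 (+).
ANGPTL4: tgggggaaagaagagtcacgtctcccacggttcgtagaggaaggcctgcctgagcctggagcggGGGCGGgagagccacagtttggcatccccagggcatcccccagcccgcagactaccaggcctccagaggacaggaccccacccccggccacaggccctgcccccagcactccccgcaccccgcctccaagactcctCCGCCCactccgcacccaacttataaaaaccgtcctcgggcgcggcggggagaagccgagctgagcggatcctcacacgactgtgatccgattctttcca
PDK4: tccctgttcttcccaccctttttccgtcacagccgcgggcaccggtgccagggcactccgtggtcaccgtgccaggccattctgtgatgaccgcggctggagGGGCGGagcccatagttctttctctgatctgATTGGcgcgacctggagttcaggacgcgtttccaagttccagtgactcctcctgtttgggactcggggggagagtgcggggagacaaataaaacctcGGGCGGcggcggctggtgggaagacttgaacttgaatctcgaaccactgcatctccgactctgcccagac
CPT1A: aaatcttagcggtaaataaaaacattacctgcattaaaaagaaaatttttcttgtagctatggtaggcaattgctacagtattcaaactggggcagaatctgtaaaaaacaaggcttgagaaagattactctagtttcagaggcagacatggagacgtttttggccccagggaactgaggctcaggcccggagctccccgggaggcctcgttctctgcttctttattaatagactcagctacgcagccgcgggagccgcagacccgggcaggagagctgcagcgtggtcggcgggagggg
HADHA: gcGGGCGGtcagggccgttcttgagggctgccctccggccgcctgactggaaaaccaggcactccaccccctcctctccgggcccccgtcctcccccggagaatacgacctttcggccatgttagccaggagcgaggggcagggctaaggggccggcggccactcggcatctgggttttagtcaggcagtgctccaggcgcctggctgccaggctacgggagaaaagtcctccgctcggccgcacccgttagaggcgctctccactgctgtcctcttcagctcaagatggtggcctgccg
HADHB: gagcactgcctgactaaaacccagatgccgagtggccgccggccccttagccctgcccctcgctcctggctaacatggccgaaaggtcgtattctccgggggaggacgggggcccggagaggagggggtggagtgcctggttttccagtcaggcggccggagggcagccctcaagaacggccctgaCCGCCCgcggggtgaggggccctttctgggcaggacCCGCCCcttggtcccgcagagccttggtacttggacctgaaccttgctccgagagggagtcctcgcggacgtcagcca

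All 9 genes matched the RefSeq table, which holds 10 windows for them because ACADVL has 2 starts. The classical PPAR element, a direct repeat of AGGTCA spaced by 1 base of any kind, was searched on both strands and was in none of the 10 windows and in 0.0228% of 35116 RefSeq promoters of the same length. An exact match this rare is missing from nearly all promoters, so its absence here does not set these genes apart. Elements with a changed base, and elements outside the windows, were not searched. A single AGGTCA was also in none of the 10, and in 13.8% of all promoters. The GC box was in 8 of the 10 windows and in 45% of all promoters. The box of the HADHA window is the same site as a box of the HADHB window, so these windows are not independent. The CPT1A window held neither GC box nor CCAAT box, and its GC content was 50%, against a median of 58.7% over all promoters. A CCAAT box was found in PDK4 and PPARD, and in 34.6% of all promoters. By RefSeq, HADHA and HADHB start 307 bases apart on opposite strands, and their windows share 194 bases. Their GENCODE gene spans overlap by 1557 bases.

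With vehicle, the order of the genes was set per kilobase of annotated exon. In sh-IGFBP6 cells ACADVL was highest at 55.6 ± 2.11 CPM per kb (SD, n = 3), followed by HADHA at 40.9, HADHB at 19.1, PPARD at 18.8, CPT1A at 11, SLC25A20 at 4.93, CPT2 at 1.33, ANGPTL4 at 1.21 and PDK4 at 0.425 CPM per kb. In sh-LUC cells ACADVL stood at 63.5 ± 4.69 CPM per kb (SD, n = 3), HADHA at 33.5, CPT1A at 18.4, HADHB at 16.7, PPARD at 15, ANGPTL4 at 7.41, SLC25A20 at 3.77, PDK4 at 2.41 and CPT2 at 1.64 CPM per kb. ACADVL and HADHA were the highest members in both lines, PDK4 was the lowest in sh-IGFBP6 cells and CPT2 the lowest in sh-LUC cells on this scale. CPT2 carries 10452 annotated exon bases but 3094 in its principal transcript, on which its vehicle level was 4.49 CPM per kb in sh-IGFBP6 cells and 5.53 CPM per kb in sh-LUC cells. The order thus depends on the length used. On principal transcripts, with no value for PPARD, PDK4 was the lowest in both lines, at 0.537 and 3.05 CPM per kb in the same order. HADHB then stood above CPT1A in sh-LUC cells, at 35 and 23.1 CPM per kb.

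**Figure D1:**
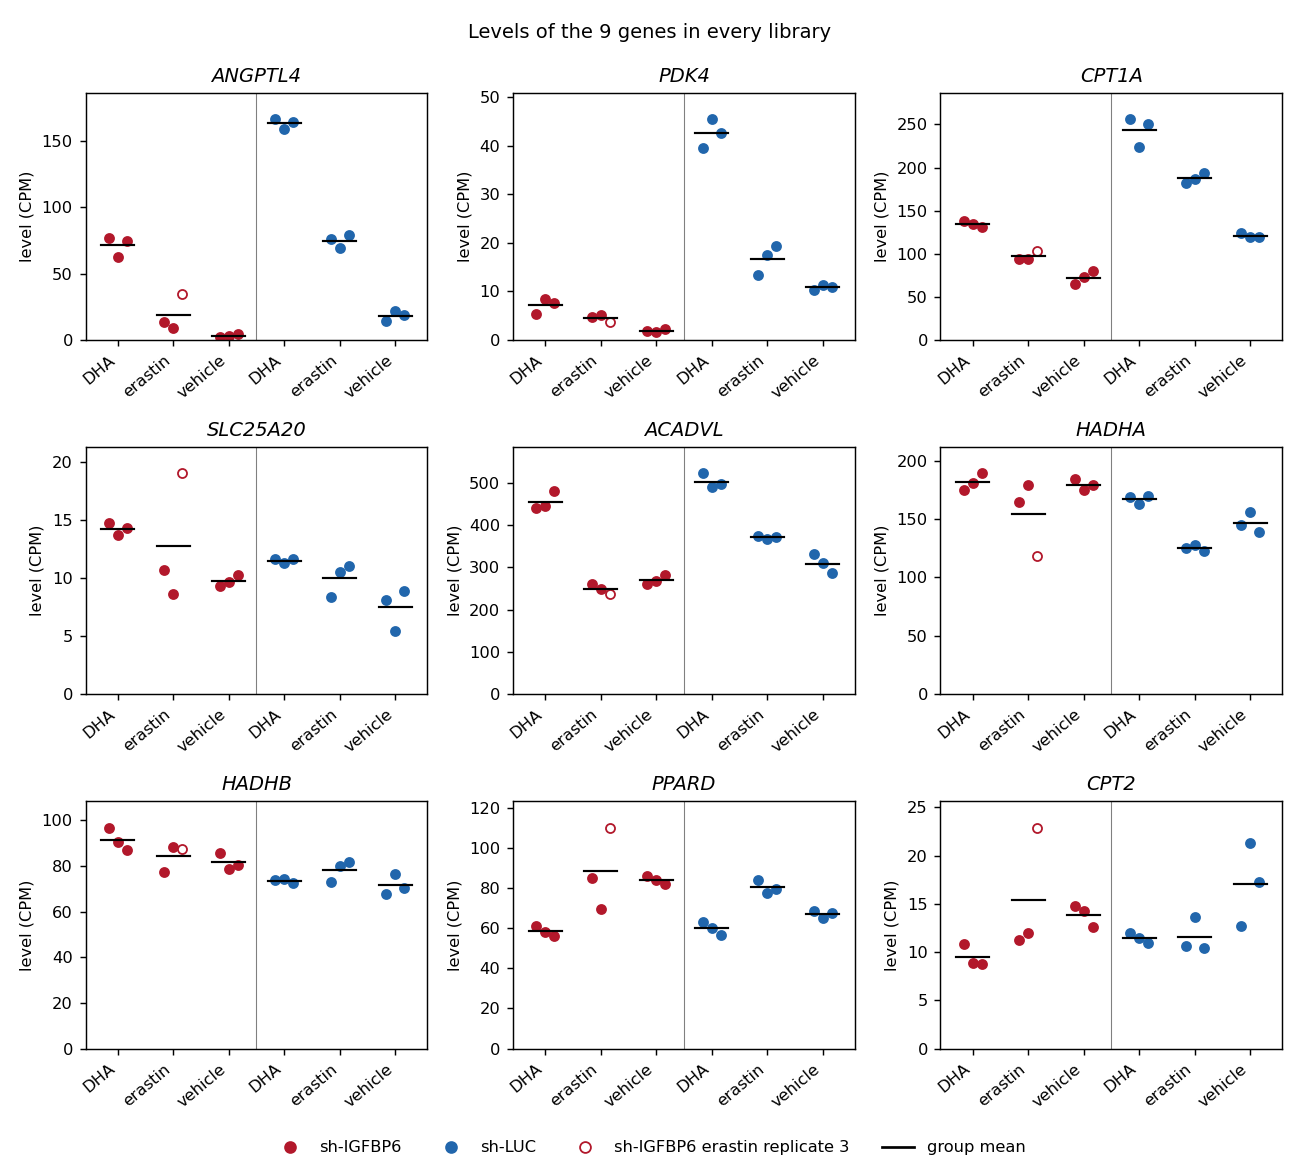
Level of each of the 9 genes in every library (CPM, axis from 0), for sh-IGFBP6 (red) and sh-LUC (blue) with DHA, erastin and vehicle; points are libraries, lines are means of 3, and the open point is sh-IGFBP6 erastin replicate 3. ANGPTL4, PDK4 and CPT1A are stepped in both lines, DHA over erastin over vehicle in mean, while HADHB varies little between groups.

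ANGPTL4 (ENSG00000167772.12, chr19:8363289-8374373, + strand; GRCh38, as all gene spans here, with GENCODE release 29 annotation) encodes a secreted inhibitor of lipoprotein lipase and is a standard PPAR target. In sh-IGFBP6 cells its level was 76.6, 62.6 and 74.5 CPM with DHA, 13.9, 9.24 and 34.3 CPM with erastin, and 2.11, 2.70 and 4.18 CPM with vehicle. In sh-LUC cells it was 166, 159 and 164 CPM with DHA, 75.9, 69.3 and 78.8 CPM with erastin, and 14.5, 21.9 and 18.7 CPM with vehicle. Every treated library lay above every vehicle library of its line, and DHA above erastin. The spread with erastin in sh-IGFBP6 cells comes from replicate 3, whose 34.3 CPM rests on 9 counts. Across the 6 groups the order of means was sh-LUC DHA, sh-LUC erastin, sh-IGFBP6 DHA, sh-IGFBP6 erastin, sh-LUC vehicle and sh-IGFBP6 vehicle, with libraries that overlapped between sh-LUC erastin and sh-IGFBP6 DHA, and between sh-IGFBP6 erastin and sh-LUC vehicle.

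PDK4 (ENSG00000004799.8, chr7:95583499-95596491, - strand) encodes a kinase that switches off pyruvate dehydrogenase, sparing glucose when fatty acids are burned. Its level in sh-IGFBP6 cells was 5.41, 8.44 and 7.53 CPM with DHA, 4.73, 5.25 and 3.81 CPM with erastin, and 1.81, 1.73 and 2.22 CPM with vehicle. Its level in sh-LUC cells was 39.5, 45.5 and 42.7 CPM with DHA, 13.3, 17.6 and 19.4 CPM with erastin, and 10.3, 11.4 and 11 CPM with vehicle. All 6 groups were separate, and every sh-LUC library, vehicle included, stood above every sh-IGFBP6 library. The sh-IGFBP6 values are thin: the vehicle libraries held 24 PDK4 counts in all.

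CPT1A (ENSG00000110090.13, chr11:68754620-68844410, - strand) is the liver-type carnitine palmitoyltransferase of the outer membrane and the regulated entry step of mitochondrial oxidation. It was at 138, 135 and 131 CPM with DHA, 93.7, 94.3 and 103 CPM with erastin, and 64.4, 72.5 and 80.2 CPM with vehicle in sh-IGFBP6 cells. It was at 256, 224 and 250 CPM with DHA, 182, 187 and 194 CPM with erastin, and 124, 119 and 120 CPM with vehicle in sh-LUC cells. No pair of neighbouring groups overlapped, and the vehicle level of sh-LUC cells lay between the erastin and the DHA level of sh-IGFBP6 cells.

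SLC25A20 (ENSG00000178537.10, chr3:48856931-48898993, - strand) is the carnitine-acylcarnitine carrier of the inner membrane. It had 14.7, 13.7 and 14.3 CPM with DHA, 10.7, 8.61 and 19.0 CPM with erastin, and 9.33, 9.64 and 10.3 CPM with vehicle in sh-IGFBP6 cells. It had 11.6, 11.3 and 11.6 CPM with DHA, 8.41, 10.5 and 11 CPM with erastin, and 8.14, 5.41 and 8.86 CPM with vehicle in sh-LUC cells. DHA libraries lay above vehicle libraries in both lines, whereas erastin and vehicle libraries overlapped in both. CPT2 (ENSG00000157184.7, chr1:53196429-53214197, + strand) is the inner-membrane transferase that completes the shuttle. Its level was 10.8, 8.87 and 8.78 CPM with DHA, 11.3, 12 and 22.9 CPM with erastin, and 14.8, 14.3 and 12.6 CPM with vehicle in sh-IGFBP6 cells. It had 12, 11.5 and 10.9 CPM with DHA, 10.6, 13.6 and 10.4 CPM with erastin, and 12.7, 21.3 and 17.3 CPM with vehicle in sh-LUC cells. CPT2 was lower with DHA than with vehicle in every library of both lines, the opposite of its partners in the shuttle.

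ACADVL (ENSG00000072778.20, chr17:7217125-7225273, + strand) is the very long-chain acyl-CoA dehydrogenase that opens the cycle. It was at 440, 446 and 481 CPM with DHA, 260, 248 and 236 CPM with erastin, and 261, 268 and 282 CPM with vehicle in sh-IGFBP6 cells. It was at 522, 489 and 497 CPM with DHA, 374, 366 and 372 CPM with erastin, and 331, 310 and 286 CPM with vehicle in sh-LUC cells. DHA libraries were the highest of each line, while erastin libraries lay above vehicle libraries in sh-LUC cells and just below them in sh-IGFBP6 cells. HADHA (ENSG00000084754.12, chr2:26190635-26244726, - strand), the alpha subunit of the trifunctional protein, spanned 118 to 189 CPM over all 18 libraries, and HADHB (ENSG00000138029.14, chr2:26243170-26290468, + strand), the beta subunit, 67.6 to 96.7 CPM. The lowest HADHA value, 118 CPM, is that of sh-IGFBP6 erastin replicate 3 and rests on 31 counts.

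PPARD (ENSG00000112033.14, chr6:35342558-35428191, + strand) is the broadly expressed PPAR. It had 61.0, 58.3 and 56.2 CPM with DHA, 85.2, 69.7 and 110 CPM with erastin, and 85.8, 83.8 and 82.2 CPM with vehicle in sh-IGFBP6 cells. It had 63.2, 60.0 and 56.6 CPM with DHA, 84.1, 77.7 and 79.5 CPM with erastin, and 68.6, 64.9 and 67.3 CPM with vehicle in sh-LUC cells. Within each line the receptor had its lowest mean with DHA, and the targets ANGPTL4, PDK4 and CPT1A their highest.

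DHA, at its single dose, was first set against vehicle within each line. In both lines ANGPTL4, PDK4, CPT1A, ACADVL and SLC25A20 rose and CPT2 fell. In sh-IGFBP6 cells 5 of the 9 rose, 2 fell and 2 did not pass the test, against 34.2% of all 15189 genes called (17.4% higher, 16.8% lower) by edgeR's quasi-likelihood F test at a Benjamini-Hochberg adjusted p below 0.05. In sh-LUC cells 6 rose, 1 fell and 2 did not pass, against 16.8% of all genes called (7.14% higher, 9.63% lower). The median log2 fold change of the 9 was 0.53 in sh-IGFBP6 cells and 0.61 in sh-LUC cells, and that of all genes 2.2e-03 and 0.01 in the same order of lines. Since the 9 were chosen with earlier results of these data known, such counts and medians describe them and do not test the pathway.

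ANGPTL4 averaged 71.2 ± 7.58 CPM with DHA and 3.0 ± 1.07 CPM with vehicle in sh-IGFBP6 cells (SD, n = 3 each), a 23.0-fold rise (log2 4.52, SE 0.17, edgeR adjusted p = 7.0e-41). In sh-LUC cells it averaged 163 ± 3.88 CPM with DHA and 18.4 ± 3.73 CPM with vehicle, an 8.77-fold rise (log2 3.13, SE 0.10, edgeR adjusted p = 3.8e-44). PDK4 rose 3.86-fold in sh-IGFBP6 cells (log2 1.95, SE 0.29, edgeR adjusted p = 1.9e-08) and 3.90-fold in sh-LUC cells (log2 1.97, SE 0.14, edgeR adjusted p = 8.9e-25). CPT1A rose 1.85-fold in sh-IGFBP6 cells and 2.01-fold in sh-LUC cells, with log2 values of 0.89 and 1.01 (SE 0.07 and 0.06, edgeR adjusted p = 8.2e-21 and 9.3e-28). In both lines the estimates ran from ANGPTL4, the highest of these 3, through PDK4 to CPT1A.

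ACADVL rose 1.68-fold with DHA in sh-IGFBP6 cells (log2 0.75, SE 0.05, edgeR adjusted p = 2.3e-24) and 1.63-fold in sh-LUC cells (log2 0.71, SE 0.05, edgeR adjusted p = 2.5e-22). SLC25A20 rose 1.44-fold in sh-IGFBP6 cells and 1.52-fold in sh-LUC cells (edgeR adjusted p = 0.0115 and 0.0148). CPT2 fell by 0.57 on the log2 scale in sh-IGFBP6 cells (SE 0.18, edgeR adjusted p = 0.00776) and by 0.60 in sh-LUC cells (SE 0.16, edgeR adjusted p = 0.00264). PPARD fell by 0.52 in sh-IGFBP6 cells (SE 0.08, edgeR adjusted p = 6.4e-08), and its log2 fold change of -0.16 in sh-LUC cells did not pass (SE 0.08, edgeR adjusted p = 0.190). HADHA rose slightly in sh-LUC cells (log2 0.19, SE 0.06, edgeR adjusted p = 0.0274) and was at 0.02 in sh-IGFBP6 cells, which did not pass, and HADHB passed in neither line, at 0.16 in sh-IGFBP6 cells and 0.04 in sh-LUC cells. The SLC25A20 calls were lost in DESeq2 (adjusted p = 0.0870 in sh-IGFBP6 cells and 0.0943 in sh-LUC cells), and that of SLC25A20 in sh-LUC cells also without sh-LUC vehicle replicate 2 (0.202) and in sh-IGFBP6 cells without sh-IGFBP6 vehicle replicate 2 (0.050). The CPT2 call was lost without sh-LUC vehicle replicate 2 in sh-LUC cells (log2 -0.43, adjusted p = 0.123) and without sh-IGFBP6 DHA replicate 2 in sh-IGFBP6 cells (log2 -0.51, adjusted p = 0.0615), and the HADHA call in sh-LUC cells without any 1 of 4 libraries (adjusted p of 0.0620 to 0.200) and in DESeq2 (0.125). With library size only in place of TMM factors, calls were lost for SLC25A20 in sh-IGFBP6 cells (log2 0.45, adjusted p = 0.120) and for SLC25A20, HADHA and CPT2 in sh-LUC cells (log2 0.66, 0.24 and -0.54, adjusted p = 0.0519, 0.697 and 0.0565).

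**Figure D2:**
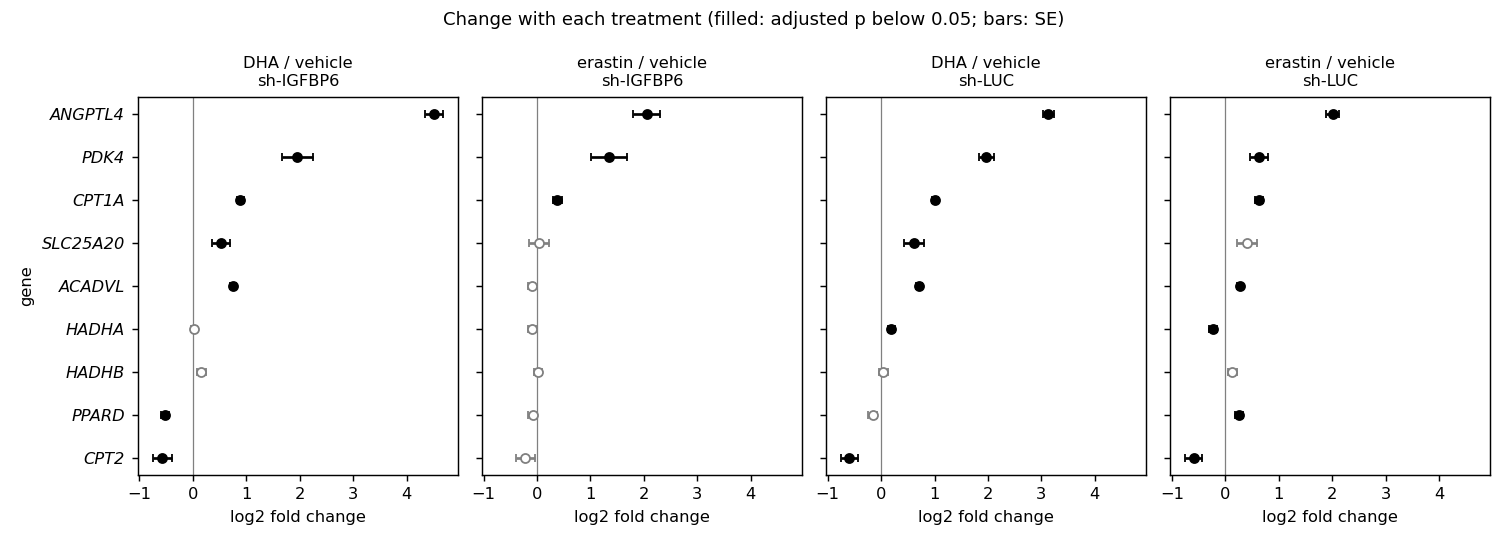
Log2 fold change of each gene against vehicle of the same line, with SE bars, for DHA and erastin in sh-IGFBP6 and then in sh-LUC cells; filled points passed edgeR at an adjusted p below 0.05. ANGPTL4 is the farthest to the right in all 4 panels, from 4.52 with DHA in sh-IGFBP6 cells to 2.01 with erastin in sh-LUC cells, and CPT2 is left of 0 throughout.

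Erastin is not a fatty acid, and the same genes were asked of it. ANGPTL4, PDK4 and CPT1A rose in both lines. In sh-IGFBP6 cells these 3 were the members that passed and none fell, against 29.0% of all genes called (14.7% higher, 14.3% lower). In sh-LUC cells 5 rose (ACADVL and PPARD with those 3), CPT2 and HADHA fell, and 2 did not pass, against 45.9% of all genes called (21.4% higher, 24.4% lower). The median of the 9 was 0.02 in sh-IGFBP6 cells and 0.27 in sh-LUC cells, and that of all genes 3.6e-03 and -0.02 in the same order of lines.

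ANGPTL4 rose 4.13-fold in sh-IGFBP6 cells (log2 2.05, SE 0.25, edgeR adjusted p = 1.2e-10) and 4.01-fold in sh-LUC cells (log2 2.01, SE 0.12, edgeR adjusted p = 2.2e-28). PDK4 rose 2.55-fold in sh-IGFBP6 cells (log2 1.35, SE 0.33, edgeR adjusted p = 7.3e-04) and 1.54-fold in sh-LUC cells (log2 0.63, SE 0.16, edgeR adjusted p = 6.5e-04). CPT1A rose 1.30-fold in sh-IGFBP6 cells (log2 0.38, SE 0.08) and 1.55-fold in sh-LUC cells (log2 0.63, SE 0.07). Without the shallow replicate 3 the sh-IGFBP6 values were 1.99 for ANGPTL4, 1.36 for PDK4 and 0.37 for CPT1A on the log2 scale, and all 3 passed. With library size only in place of TMM factors, CPT1A in sh-IGFBP6 cells did not pass (log2 0.11, adjusted p = 0.779).

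ACADVL rose 1.2-fold in sh-LUC cells (log2 0.27, SE 0.05, edgeR adjusted p = 1.4e-05) and had a log2 fold change of -0.10 in sh-IGFBP6 cells, which did not pass (SE 0.06, edgeR adjusted p = 0.230). PPARD rose 1.2-fold in sh-LUC cells (log2 0.26, SE 0.08, edgeR adjusted p = 0.00381) and stood at -0.08 in sh-IGFBP6 cells, where it did not pass. CPT2 fell by 0.59 in sh-LUC cells (SE 0.16, edgeR adjusted p = 0.0010), with overlapping libraries and with the call lost without sh-LUC vehicle replicate 2 (log2 -0.42, adjusted p = 0.0599), and stood at -0.22 in sh-IGFBP6 cells without passing. HADHA fell by 0.23 in sh-LUC cells (SE 0.07, edgeR adjusted p = 0.00253), which did not pass when no filter on low counts was set (log2 -0.18, adjusted p = 0.0797). HADHB and SLC25A20 passed in neither line, although SLC25A20 passed in sh-LUC cells without sh-LUC vehicle replicate 3 (log2 0.59, adjusted p = 0.0449) or erastin replicate 1 (log2 0.51, adjusted p = 0.0352). With library size only, ACADVL, PPARD and HADHA did not pass in sh-LUC cells (log2 0.16, 0.16 and -0.34, adjusted p = 0.665, 0.477 and 0.248).

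DHA and erastin, which are not related in structure, were also set against each other within each line, each at its single dose. In sh-IGFBP6 cells 4 of the 9 were higher with DHA, 1 was lower and 4 did not pass, against 25.9% of all genes called (13.1% higher, 12.8% lower). In sh-LUC cells 5 were higher, 1 was lower and 3 did not pass, against 50.2% of all genes called (26.0% higher, 24.2% lower). ANGPTL4 was 5.57-fold higher with DHA in sh-IGFBP6 cells (log2 2.48, SE 0.13, edgeR adjusted p = 4.6e-30) and 2.18-fold higher in sh-LUC cells (log2 1.13, SE 0.07, edgeR adjusted p = 4.5e-26). PDK4 was 2.53-fold higher in sh-LUC cells (log2 1.34, SE 0.10, edgeR adjusted p = 5.4e-23), and 0.60 higher on the log2 scale in sh-IGFBP6 cells without passing (SE 0.24, edgeR adjusted p = 0.0508), although it passed without sh-IGFBP6 DHA replicate 1 (log2 0.72, adjusted p = 0.0249). ACADVL was higher with DHA by 0.85 in sh-IGFBP6 cells and by 0.44 in sh-LUC cells, CPT1A by 0.51 and 0.37, and PPARD lower, at -0.45 and -0.43, in the same order of lines, and all passed. HADHA was higher with DHA in sh-LUC cells (log2 0.41, SE 0.06, edgeR adjusted p = 1.8e-09). SLC25A20 was higher in sh-IGFBP6 cells (log2 0.49, SE 0.18, edgeR adjusted p = 0.0293), a call lost without any 1 of 5 libraries (adjusted p of 0.0533 to 0.232) and in DESeq2 (0.158). With library size only, SLC25A20 and PPARD did not pass in sh-IGFBP6 cells (log2 0.55 and -0.33, adjusted p = 0.0675 and 0.189), nor PPARD in sh-LUC cells (log2 -0.26, adjusted p = 0.142).

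The sh-IGFBP6 and sh-LUC lines were compared with vehicle to see where the genes stood before treatment. ANGPTL4, PDK4, CPT1A and ACADVL were lower in sh-IGFBP6 cells, and PPARD, HADHA and HADHB were higher. These are 4 lower, 3 higher and 2 that did not pass, SLC25A20 and CPT2, against 64.6% of all genes called (32.5% higher, 32.1% lower). ANGPTL4 averaged 3.0 ± 1.07 CPM in sh-IGFBP6 cells and 18.4 ± 3.73 CPM in sh-LUC cells (SD, n = 3 each), a log2 fold change of -2.61 (SE 0.24, edgeR adjusted p = 2.8e-17). PDK4 averaged 1.92 ± 0.259 CPM in sh-IGFBP6 cells and 10.9 ± 0.590 CPM in sh-LUC cells, a log2 fold change of -2.50 (SE 0.29, edgeR adjusted p = 7.7e-14). CPT1A averaged 72.4 ± 7.90 CPM in sh-IGFBP6 cells and 121 ± 2.79 CPM in sh-LUC cells (log2 -0.73, SE 0.08, edgeR adjusted p = 1.0e-15).

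The remaining differences between the lines were small. PPARD was 1.25-fold higher in sh-IGFBP6 cells (log2 0.33, SE 0.08, edgeR adjusted p = 4.2e-04) and HADHA 1.22-fold higher (log2 0.29, SE 0.07, edgeR adjusted p = 7.4e-05). ACADVL was 0.19 lower on the log2 scale (log2 -0.19, SE 0.06, edgeR adjusted p = 0.00246), a call lost without sh-LUC vehicle replicate 1 (adjusted p = 0.0508). HADHB was 1.14-fold higher (log2 0.18, SE 0.08, edgeR adjusted p = 0.0428), which passed neither in DESeq2 (0.152) nor without any 1 of 3 vehicle libraries (0.114 to 0.139). CPT2 at -0.32 did not pass, but did without sh-LUC vehicle replicate 1 (log2 -0.46, adjusted p = 0.0179). With library size only, ACADVL, HADHA and HADHB did not pass (log2 -0.09, 0.39 and 0.29, adjusted p = 0.767, 0.123 and 0.134). The summed level of 6 luminal markers was 51 to 57 CPM in sh-IGFBP6 vehicle libraries and 21 to 23 CPM in sh-LUC vehicle libraries. That of the 7 genes listed for mesenchymal and basal lines was 4611 to 4645 CPM and 5985 to 6131 CPM. Each list held genes that were higher and genes that were lower. Of the luminal markers 2 were higher in sh-IGFBP6 cells, FOXA1 (35.4 CPM, against 0.118 CPM in sh-LUC cells) and EPCAM (11.3 against 3.90 CPM), and 2 were lower, GATA3 (4.79 against 11.1 CPM) and CDH1 (0.146 against 5.97 CPM). With vehicle, FOXA1 had 1 count in all in sh-LUC cells, and CDH1 had 2 counts in all in sh-IGFBP6 cells. FOXA1 passed the filter on low counts through sh-IGFBP6 cells and CDH1 through sh-LUC cells. The calls of FOXA1 and CDH1 between the lines are therefore not independent of the filter. Of the 7 genes listed for mesenchymal and basal lines 2 were higher, VIM and EGFR, and 5 were lower. Among those 5 were KRT8 (289 against 838 CPM) and KRT18 (232 against 378 CPM), which luminal cells also express. The part of the genes of both lists in the differences above was not tested.

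Whether the lines answered a treatment by different amounts was tested as an interaction. For DHA, ANGPTL4 and PPARD differed and the other 7 did not pass, against 20.6% of all genes called (10.4% higher, 10.2% lower). The log2 rise of ANGPTL4 with DHA was larger in sh-IGFBP6 cells by 1.39 (4.52 against 3.13, SE 0.27, edgeR adjusted p = 2.2e-05). Its level stayed lower there with DHA, 71.2 CPM against 163 CPM, as it was with vehicle. The response of PPARD was lower in sh-IGFBP6 cells (difference -0.36, that is -0.52 against -0.16, SE 0.12, edgeR adjusted p = 0.0163), a call made neither in DESeq2 (adjusted p = 0.0547) nor with library size only (log2 -0.50, adjusted p = 0.170). PDK4 had a difference of -0.02 (SE 0.37) and CPT1A of -0.12 (SE 0.10), neither of which passed.

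For erastin, ACADVL and PPARD differed between the lines and 7 did not pass, against 26.2% of all genes called (14.1% higher, 12% lower). The difference for ACADVL was -0.37 (SE 0.08, edgeR adjusted p = 1.8e-04), that is -0.10 in sh-IGFBP6 cells against 0.27 in sh-LUC cells. The difference for PPARD was -0.34 (SE 0.12, edgeR adjusted p = 0.0189), and its call was lost in DESeq2 (0.0767) and without sh-LUC vehicle replicate 2 (0.0546), sh-LUC erastin replicate 1 (0.0515) or sh-IGFBP6 erastin replicate 2 (0.239). With library size only, neither ACADVL nor PPARD passed (differences -0.61 and -0.43, adjusted p = 0.277 and 0.227). Without the shallow sh-IGFBP6 erastin replicate 3 the values were -0.38 for ACADVL and -0.38 for PPARD, and CPT1A also passed (difference -0.29, adjusted p = 0.0306, against -0.26 and 0.0534 with it), as it did without sh-IGFBP6 vehicle replicate 1 (0.0217) or sh-LUC erastin replicate 1 (0.0473). ANGPTL4 had a difference of 0.04 (SE 0.31) and PDK4 of 0.73 (SE 0.38), neither of which passed.

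**Figure D3:**
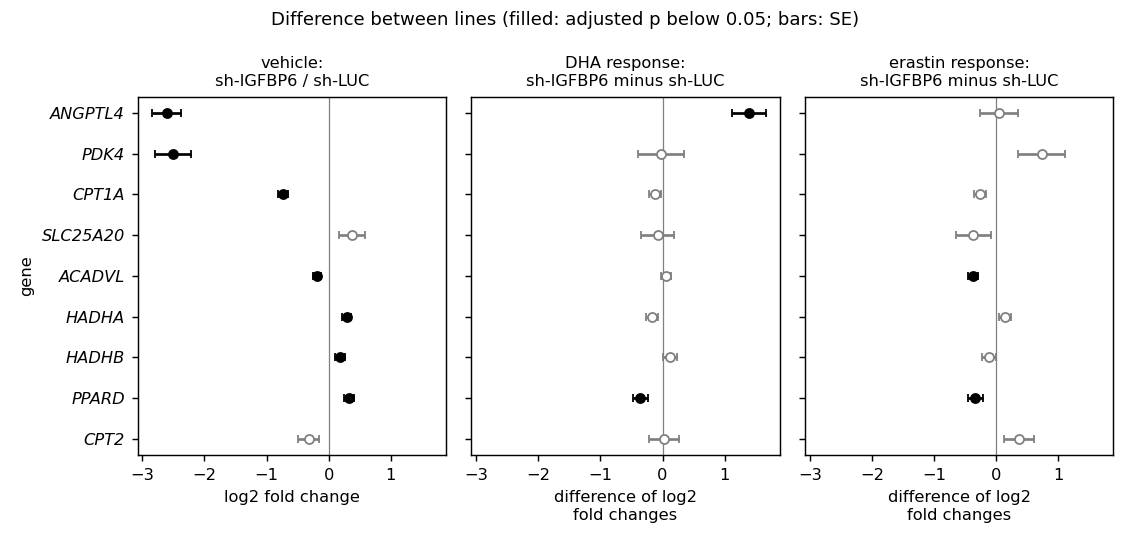
Left, log2 fold change of sh-IGFBP6 over sh-LUC cells with vehicle; middle and right, difference of the log2 fold change with DHA and with erastin between the lines (sh-IGFBP6 minus sh-LUC), on 1 shared axis. Bars are SE and filled points passed edgeR at an adjusted p below 0.05: ANGPTL4 and PDK4 lie near -2.61 and -2.50 at left, and ANGPTL4 at 1.39 in the middle.

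HADHA and HADHB encode the subunits of 1 enzyme complex and start head to head, so their counts were also set as a ratio within each library. With erastin the ratio of HADHA to HADHB counts in sh-LUC cells was 1.72, 1.6 and 1.5, against 2.15, 2.04 and 1.98 with vehicle, and the libraries did not overlap. The means were 1.6 ± 0.109 with erastin and 2.06 ± 0.0831 with vehicle (SD, n = 3 each), a difference of -0.452 (exact permutation test, two-sided p = 0.100, the smallest that 3 against 3 allows). With DHA in the same line the ratio was 2.28, 2.19 and 2.35, above all vehicle libraries (exact permutation test, two-sided p = 0.100). In sh-IGFBP6 cells it was 1.81, 2.00 and 2.18 with DHA, 2.14, 2.03 and 1.35 with erastin, and 2.15, 2.22 and 2.22 with vehicle. There DHA and vehicle libraries overlapped (exact permutation test, two-sided p = 0.200), and the erastin libraries lay below the vehicle libraries (exact permutation test, two-sided p = 0.100). The erastin value of 1.35 is that of the shallow library, from 31 HADHA and 23 HADHB counts. The 4 ratio tests were not adjusted, since none could fall below 0.100. The ratio of a gene pair shows unequal change, not which gene changed.

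**Figure D4:**
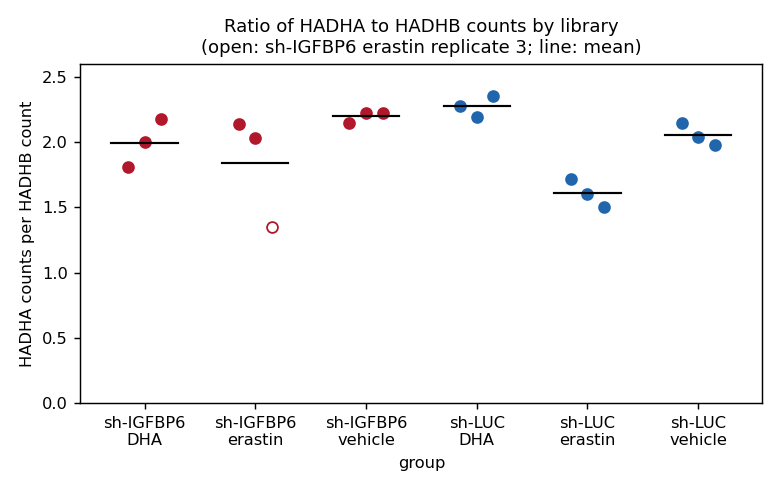
Ratio of HADHA to HADHB counts in each library (axis from 0), by line and treatment; points are libraries, lines are means of 3 and the open point is sh-IGFBP6 erastin replicate 3. The 3 sh-LUC erastin libraries, at 1.72 or lower, lie below the sh-LUC vehicle libraries, at 1.98 or higher.

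The rest of the pathway was read from 8 lists of related genes. Their counts stand beside the shares of all genes called, which were 34.2% and 16.8% for DHA and 29.0% and 45.9% for erastin in sh-IGFBP6 and sh-LUC cells, and 64.6% between the lines with vehicle. In the same order of lines, 17.4% and 7.14% were higher with DHA, and 14.7% and 21.4% with erastin. Lower were 16.8% and 9.63% with DHA, and 14.3% and 24.4% with erastin. Of 14 further PPAR targets outside mitochondrial oxidation 7 were tested, and PLIN2, a lipid droplet coat protein, rose in all 4 treatment comparisons. PLIN2 rose with DHA by 2.61 in sh-IGFBP6 cells and 1.96 in sh-LUC cells, and with erastin by 1.5 and 2.20 in the same order of lines (log2, SE 0.08 to 0.09). Its mean level was 232 ± 3.99 CPM with DHA, 111 ± 6.92 CPM with erastin and 37.1 ± 6.15 CPM with vehicle in sh-IGFBP6 cells, and 148 ± 7.52, 175 ± 7.34 and 38.2 ± 1.80 CPM with the same treatments in sh-LUC cells (SD, n = 3). CREB3L3 encodes a membrane-bound transcription factor of lipid metabolism in liver. In sh-LUC cells it was at 6.23 ± 0.957 CPM with DHA and 0.776 ± 0.109 CPM with vehicle (SD, n = 3 each), the last from 8 counts. Its log2 fold change there was 2.96 (SE 0.41). Outside sh-LUC DHA its mean was at most 0.996 CPM, so it passed the filter on low counts through that group alone. Its call as higher is therefore not independent of the filter. The uncoupling protein gene UCP2 fell in sh-IGFBP6 cells, by 0.84 with DHA and by 0.69 with erastin, and in sh-LUC cells by 0.39 with erastin. Of these 7 tested genes 1 rose and 1 fell with DHA in sh-IGFBP6 cells and 2 rose and 0 fell in sh-LUC cells, CREB3L3 being 1 of those 2.

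PPAR receptors, partners and cofactors (12 genes, all tested) moved in no single direction. With DHA 2 rose and 2 fell in sh-IGFBP6 cells, where PPARG and its coactivator PPARGC1A fell by 0.60 and 0.96, and 2 rose and 1 fell in sh-LUC cells, where PPARA fell by 0.39. With erastin 5 rose and 1 fell in sh-IGFBP6 cells, and 2 rose and 4 fell in sh-LUC cells. RXRA, the retinoid X receptor that pairs with PPARs, was lower in sh-IGFBP6 than in sh-LUC cells with vehicle (26.8 ± 2.28 CPM and 91.6 ± 6.73 CPM, SD, n = 3 each; log2 -1.76, SE 0.10, edgeR adjusted p = 5.0e-33). With erastin RXRA rose in sh-IGFBP6 cells (log2 0.33, SE 0.12, edgeR adjusted p = 0.0286) and fell in sh-LUC cells by 0.80 (SE 0.08).

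Genes of mitochondrial oxidation and electron transfer outside the 9 (14 listed, 13 tested) moved both ways with DHA. With DHA 2 rose and 6 fell in sh-IGFBP6 cells (median -0.13), and 3 rose and 1 fell in sh-LUC cells (median 0.18). ACAA2, the mitochondrial thiolase, rose with DHA by 0.67 in sh-IGFBP6 cells and by 0.70 in sh-LUC cells. HADH, the medium and short-chain hydroxyacyl-CoA dehydrogenase, fell by 0.65 with DHA in sh-IGFBP6 cells and by 0.69 with erastin, and in sh-LUC cells by 0.72 with erastin. With erastin 0 rose and 4 fell in sh-IGFBP6 cells, and 0 rose and 5 fell in sh-LUC cells. Of the activation and carnitine list (10 listed, 9 tested), with DHA 1 rose and 3 fell in sh-IGFBP6 cells and 1 rose and 2 fell in sh-LUC cells. In both lines the riser was ACSL5, an acyl-CoA synthetase, at 0.40 in sh-IGFBP6 cells and 0.27 in sh-LUC cells, while ACSL3, an acyl-CoA synthetase of lipid droplets, fell by 0.48 and 0.44. With vehicle ACSL1 was lower in sh-IGFBP6 cells (3.25 ± 0.718 CPM) than in sh-LUC cells (22.4 ± 2.63 CPM, SD, n = 3 each; log2 -2.82, SE 0.21).

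Peroxisomal oxidation (14 listed, 12 tested) had 1 gene up and 2 down with DHA in sh-IGFBP6 cells and 0 up and 3 down in sh-LUC cells, and 1 up and 2 down with erastin in sh-IGFBP6 cells and 0 up and 7 down in sh-LUC cells. SCP2, a peroxisomal thiolase and sterol carrier, was at 36.6 ± 3.28 CPM with vehicle in sh-IGFBP6 cells and at 220 ± 17.0 CPM in sh-LUC cells (SD, n = 3 each; log2 -2.59, SE 0.08, edgeR adjusted p = 2.0e-57). Between the lines with vehicle 1 gene of this list was higher in sh-IGFBP6 cells and 7 were lower, of 12 tested, a share near the 64.6% of all genes called there.

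Among pyruvate dehydrogenase kinases, phosphatases and subunits (10 tested), PDK1 rose with both agents in both lines. With DHA its log2 rise was 0.77 in sh-IGFBP6 cells and 0.72 in sh-LUC cells, and with erastin 0.62 and 1.71. The subunit genes DLAT and PDHB fell in sh-IGFBP6 cells by 0.44 and 0.40 with DHA and by 0.39 and 0.38 with erastin. In all, 1 gene of this list rose and 4 fell with each agent in sh-IGFBP6 cells, 2 rose and 3 fell with DHA in sh-LUC cells, and 1 rose and 7 fell with erastin there.

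Malonyl-CoA, the inhibitor of CPT1, is made by acetyl-CoA carboxylases and removed by MLYCD. ACACA, the cytosolic carboxylase, fell with DHA by 0.77 in sh-IGFBP6 cells (SE 0.06, edgeR adjusted p = 2.2e-21) and by 0.59 in sh-LUC cells (SE 0.06, edgeR adjusted p = 4.2e-15), and with erastin by 0.44 and 0.46. ACACB, the mitochondrial carboxylase, fell with DHA by 1.47 in sh-IGFBP6 cells (SE 0.26). Of this list (5 tested), with DHA 0 rose and 2 fell in sh-IGFBP6 cells and 0 rose and 1 fell in sh-LUC cells. With erastin 0 rose and 2 fell in sh-IGFBP6 cells, and 1 rose and 2 fell in sh-LUC cells.

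Of extracellular lipases and the ANGPTL family outside ANGPTL4 (11 listed, 5 tested), no gene rose with either agent in either line. LIPG, endothelial lipase, fell by 2.42 with erastin and by 0.80 with DHA in sh-LUC cells, and by 1.26 with DHA in sh-IGFBP6 cells. The fall in sh-IGFBP6 cells rests on 26 vehicle and 12 DHA counts in all (SE 0.48, edgeR adjusted p = 0.0295). With vehicle LIPG was at 2.05 ± 0.214 CPM in sh-IGFBP6 cells and 66.9 ± 5.61 CPM in sh-LUC cells (SD, n = 3 each; log2 -5.00, SE 0.18, edgeR adjusted p = 3.1e-51). Its mean was at most 2.05 CPM in the sh-IGFBP6 groups and at least 12.5 CPM in the sh-LUC groups. LIPG thus passed the filter on low counts through sh-LUC cells, so its call between the lines is not independent of the filter.

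**Figure D5:**
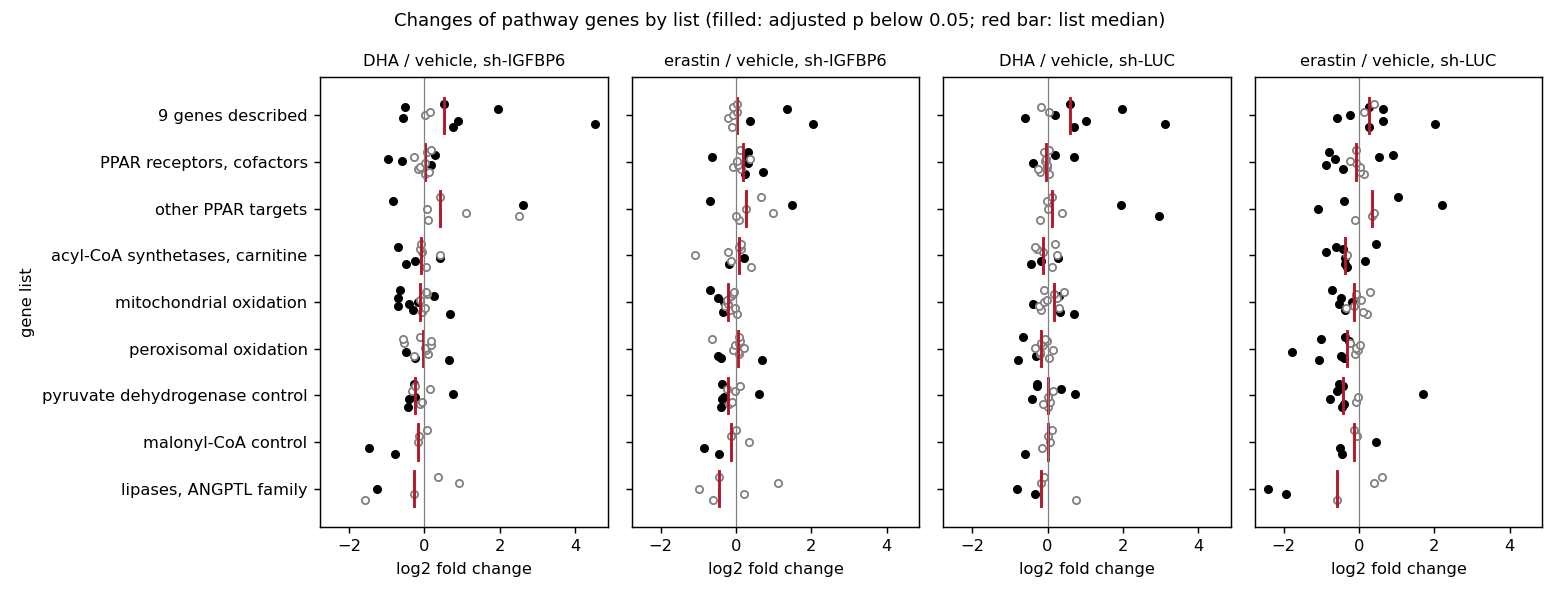
Log2 fold change against vehicle of every tested gene of the 9 and of the 8 related lists, for DHA and erastin in sh-IGFBP6 and then sh-LUC cells, on 1 shared axis; filled points passed edgeR at an adjusted p below 0.05 and red bars are list medians. With DHA the 9 genes have medians of 0.53 in sh-IGFBP6 cells and 0.61 in sh-LUC cells, while the further genes of mitochondrial oxidation have medians of -0.13 and 0.18 in the same order of lines.

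Levels of ANGPTL4, PDK4 and CPT1A were also correlated over the libraries. Over the 18 libraries the log2 levels of PDK4 and CPT1A had a Pearson r of 0.956. The r was 0.936 for ANGPTL4 and CPT1A, and 0.85 for ANGPTL4 and PDK4. ACADVL came near the last value, with an r of 0.83 to ANGPTL4, 0.82 to CPT1A and 0.74 to PDK4. Such values are given as a description, since libraries of a group share a treatment and a line. ANGPTL4, PDK4 and CPT1A had already been grouped by their rise with both agents in both lines. Their high r over the same libraries is therefore not separate evidence that they belong together. Of 11517 candidate genes whose mean reached 5 CPM, the nearest to PDK4 were PAX8-AS1 (0.959), CPT1A (0.956) and GPC1 (0.954), and the nearest to ANGPTL4 were TRIM16L (0.946), CPT1A (0.936) and SH3KBP1 (0.926). CPT1A was nearest to PDK4 (0.956), ANGPTL4 (0.936) and AKR1B1 (0.935). ACADVL ran against PPARD (r = -0.76) and against CPT2 (r = -0.62), while HADHA and HADHB had an r of 0.30.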

How the data were processed

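The deposited values are gene counts, whole reads per gene and not normalized. The submitters' processing notes name cutadapt 4.4, STAR 2.7.7a, featureCounts (version not given) and GRCh38; annotation release and strand setting are not known here. On GENCODE release 29, exons of ACADVL overlap DLG4 by 85 bases and those of CPT2 overlap CZIB by 99 bases on the opposite strand, so counts there may mix. Rows naming no gene (at most 0.0108% of a library) were left out.

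The edgeR 4.0.16 model (R 4.3.3) used TMM factors, filterByExpr (minimum count 10, minimum total 15), 1 coefficient per group over 18 libraries (12 residual degrees of freedom), quasi-likelihood F tests and Benjamini-Hochberg adjustment over all 15189 genes tested, with calls below 0.05. Depth ran from 609936 to 7977429 counts, which limits the precision of low genes. Members and gene lists were chosen with earlier results of these data known. The 9 members are always named, and of each list up to 3 called genes per comparison with the smallest adjusted p could be named. Promoter windows come from RefSeq (GRCh38.p14). Alternatives were RLE factors, library size only, no filter, DESeq2 1.42.0, only the libraries compared, a replicate block, leaving out each library, and leaving out MT-RNR1 and MT-RNR2. Results of some list genes are not reported here, though list counts include them. Scripts were tested on simulated data.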

Additional observations from a re-analysis of the deposited data

Results flagged for a closer look

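Results are given here because the test of the difference between lines passed (edgeR interaction, sh-IGFBP6 minus sh-LUC, on the log2 scale); groups of 3 libraries are too small for a test of single outlying libraries. For the DHA response these were ANGPTL4 at 1.39 and PPARD at -0.36. For the erastin response they were ACADVL at -0.37 and PPARD at -0.34.

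Among the related genes named here, the erastin response was higher in sh-IGFBP6 cells for RXRA (1.13), PEX11A (1.37), ACSL5 (0.58), CRAT (0.57), ACOX2 (1.82), SCP2 (0.45), PDP1 (0.55), PDHB (0.39), ANGPTL2 (2.16) and LIPG (1.46). It was lower there for PPRC1 (-0.62), PLIN2 (-0.70), ACSL4 (-0.28), ACAD9 (-0.45) and PDK1 (-1.09). These values include the shallow sh-IGFBP6 erastin replicate 3. Those of LIPG (SE 0.54) and PEX11A (SE 0.52) also rest on few counts. LIPG passed the filter on low counts through sh-LUC cells, so its call is not independent of the filter. In sh-IGFBP6 cells LIPG had 26 counts with vehicle and 13 with erastin, and PEX11A 21 and 25.

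The DHA response was higher in sh-IGFBP6 cells for PLIN2 (0.66) and SCP2 (0.54). It was lower there for PPARGC1B (-0.97), PPARG (-0.53), PPARGC1A (-0.92), UCP2 (-0.83), ECI2 (-0.95), HADH (-0.55), ACAD9 (-0.39), ABCD3 (-0.29), DLAT (-0.44), ACACB (-1.32) and ANGPTL1 (-2.35). PLIN2 was thus lower in its erastin response and higher in its DHA response in sh-IGFBP6 cells. The ANGPTL1 difference (SE 0.81) rests on 14 vehicle and 5 DHA counts in sh-IGFBP6 cells. Its mean was 3.43 CPM in sh-LUC DHA and at most 1.99 CPM in other groups. It passed the filter on low counts through sh-LUC DHA, so its call is not independent of the filter.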

How the results depend on the processing

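Over 1215 alternatives to the member results, 1117 kept direction and side of the threshold, 50 lost the call, 10 gained it and 38 changed sign. Of 40 sign changes in members and named list genes, 2 touched a called value, PPRC1 (-0.05) and ACSL5 (-0.08) with erastin in sh-IGFBP6 cells under library size only. Low depth limits ANGPTL4 and PDK4 in sh-IGFBP6 vehicle libraries, with 38 and 24 counts in all. The replicate numbers did not pair libraries (correlations of deviations from -0.04 to 0.08), and the replicate block changed 0 member calls, with 7 members and 2642 genes called for DHA in sh-LUC cells. Causes of the changes below were not tested.

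Library size only left 4 members called (7 in the main analysis) for erastin and 4 (7) for DHA in sh-LUC cells, 2 (3) for erastin and 6 (7) for DHA in sh-IGFBP6 cells, 4 (7) between lines, 3 (5) for DHA over erastin in sh-IGFBP6 cells, 0 (2) for the erastin and 1 (2) for the DHA response difference. It left 4571 genes (6967) for erastin and 756 (2546) for DHA in sh-LUC cells, 2728 (4404) and 2579 (5202) in sh-IGFBP6 cells, 1541 (3928) for DHA over erastin there, and 1327 (3973) and 1041 (3124) for the erastin and DHA response differences. It put the median of all genes at -0.19 to 0.17 over the comparisons. It moved the share of calls that were higher to 31.9% (46.7%) for erastin and 73.5% (51.8%) for DHA over erastin in sh-LUC cells. In sh-IGFBP6 cells that share moved to 23.1% (50.5%), 33.3% (50.8%) and 63.1% (50.6%) for erastin, DHA and DHA over erastin. For the DHA response difference it moved to 26.5% (50.6%). DESeq2 called 1565 genes for DHA in sh-LUC cells, 2422 for DHA over erastin in sh-IGFBP6 cells, and 1 member in each response difference. Leaving out 1 library gave 2592 to 3874 genes for DHA over erastin in sh-IGFBP6 cells (lowest without erastin replicate 1) and 1 to 3 members for the erastin response difference.

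Sign changes of uncalled members were as follows. With erastin in sh-IGFBP6 cells, SLC25A20 was -0.10 and HADHB -0.19 under library size only, and HADHB -4.5e-04 with RLE factors; leaving out 1 library gave -0.10 to 0.17 for SLC25A20, -0.06 to 0.10 for HADHB and -0.22 to 0.05 for PPARD. With DHA there, HADHA was -0.06 under library size only, -0.01 with no filter and -3.1e-03 to 0.05 without 1 library. For DHA over erastin in sh-LUC cells, HADHB was 0.07 and CPT2 0.15 under library size only, and CPT2 0.01 with no filter and -0.09 to 0.13 without 1 library. In the erastin response difference, ANGPTL4 was -0.01 with no filter and -0.23 to 0.30 without 1 library, and HADHA -0.10 under library size only. In the DHA response difference, ACADVL, HADHB and CPT2 were -0.08, -0.01 and -0.11 under library size only, and ACADVL and CPT2 -0.05 and -0.06 with no filter; without 1 library PDK4 ran from -0.20 to 0.10, SLC25A20 from -0.26 to 0.10, ACADVL from -0.01 to 0.10 and CPT2 from -0.14 to 0.17.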
